A study of Homo sapiens with 12 samples.

Results

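The genes of DNA replication and cell division were followed in melanoma cells grown in hypoxia and in normoxia. The group is a fixed list of 47 genes, 23 of S phase and 24 of G2 and mitosis (G2/M), each matched by its Ensembl gene ID to 1 row of the 60656 rows in the count table. All 47 passed the filter on low counts. RNA of 3 established human lines of metastatic melanoma was sequenced after culture in 1% oxygen (hypoxia) or at atmospheric oxygen (normoxia). The 6 groups of 2 libraries were A2058 hypoxia, A2058 normoxia, A375 hypoxia, A375 normoxia, SKMEL-5 hypoxia and SKMEL-5 normoxia. The labels name no further agent and no time in hypoxia. The design text calls the 2 libraries of a group biological duplicates, and nothing says whether they came from separate cultures on separate days, so p-values measure only the spread between these libraries.

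A dividing cell first licenses its replication origins by loading the MCM2-7 helicase with the help of CDC6 and CDT1, then fires them in S phase with CDC45, the GINS complex and the polymerases, and later condenses and separates its chromosomes. Transcription follows the same order. E2F factors, held back by RB1 and its relatives, drive the S phase genes. The MuvB complex with B-MYB and FOXM1 drives the G2/M genes through a promoter element called CHR. Low oxygen is known to slow replication in many cell types.

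Libraries held 33831569 to 54202819 counts. Values below are CPM, the counts divided by library size after scaling by the trimmed mean of M-values (TMM), and log2 changes come from edgeR's quasi-likelihood fit over 19636 genes, with Benjamini-Hochberg adjustment over all of them and a threshold of 0.05. Duplicates of a group differed by more than counting noise, with a median chi-square per gene of 8.93 to 37.6 on 1 degree of freedom. The summed level of 15 hypoxia response genes was 8783 to 17893 CPM in the hypoxic libraries and 2106 to 3451 CPM in the normoxic ones, and 12 of the 15 passed the test. SOX10, a transcription factor of the melanocyte lineage, stood at 765 CPM or more in every library, while the pigment genes TYR and MLANA had 0 counts in all A375 and SKMEL-5 libraries; the 6 melanocytic markers summed to 850.3 to 7934 CPM in hypoxia and 963 to 2563 CPM in normoxia. A375 and SKMEL-5 libraries were nearly alike (Pearson r across genes 0.912 to 0.990 between these lines, 0.917 to 0.982 among A375 libraries, and 0.810 to 0.880 between A2058 and A375), so they are not taken as independent support for each other. The summed level of 7 fibroblast markers was 6.13 to 138 CPM in hypoxia and 4.86 to 33.9 CPM in normoxia, with the upper values in A2058 (86.8 to 138 CPM in hypoxia and 29.2 to 33.9 CPM in normoxia). Of the 7, 6 had a positive change and 0 passed with edgeR, 4 had an unadjusted p under 0.05, and DESeq2 called 3. Over all tested genes 19.0% had an unadjusted p under 0.05 (edgeR), and DESeq2 called 5.65% higher and 2.21% lower. COL3A1 was at 0 counts in A375 hypoxia and COL1A2 in SKMEL-5 hypoxia. The 5 keratinocyte markers summed to 51.7 to 144 CPM in hypoxia and 43.3 to 103 CPM in normoxia, and the 5 blood cell markers to 0.0715 to 1.68 CPM in hypoxia and 0.243 to 3.5 CPM in normoxia, with KRT1 at 0 counts in every hypoxic library and HBB in every normoxic one. Only 2 genes of each of these lists of 5 passed the filter on low counts and were tested. None of them passed the test or reached an unadjusted p under 0.05 (edgeR), and DESeq2 called 0. The part of these markers in the results was not tested.

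In each line 1 hypoxic library stood apart from the other, as known from earlier results of these data. DBP, a gene of the circadian clock output, marks them. It had 157 CPM in A2058 hypoxia 2, 348 CPM in A375 hypoxia 1 and 129 CPM in SKMEL-5 hypoxia 1, against 16.1, 7.32 and 11.2 CPM in the other hypoxic library of the same line. TXNIP, a gene of glucose and stress response, had 332, 891 and 1571 CPM there, against 89.6, 53.2 and 82.0 CPM, and the mitochondrial ribosomal RNA gene MT-RNR2 had 4305, 21319 and 14839.5 CPM, against 1719, 549 and 1310.4 CPM. Mitochondrial genes took 1.74%, 3.32% and 3.13% of counts there, against 1.22%, 0.648% and 1.35%. The normoxic libraries had 2250.4 to 28092 CPM of MT-RNR2. The part of these in the results was not tested. The 3 hypoxic libraries that stood apart are called the DBP-high libraries here, and counts and medians in hypoxia are given with and without them. Leaving them out changes the hypoxic side only, since all normoxic libraries stay in. Where the values of both libraries of a group are printed, replicate 1 comes before replicate 2. In bulk RNA, fewer cells in a phase and less RNA per cell cannot be told apart.

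Promoter sequences were searched for the E2F and CHR motifs and for the CCAAT box, a further promoter element. Of the 47 genes, 38 had a promoter in RefSeq (GRCh38.p14; 250 bases before to 50 after the start), 20 of S phase and 18 of G2/M. An E2F motif (TTTCCCGC, TTTCGCGC, TTTGCCGC or TTTGGCGC on either strand; matches can overlap, as in MCM6) lay in 13 of the 20 S phase promoters (65.0%), in 2 of the 18 G2/M promoters (11.1%) and in 5.0% of the 12856 promoters of all tested genes. A CHR motif (TTTGAA on either strand) lay in 11 of the 18 G2/M promoters (61.1%), in 1 of the 20 S phase promoters (5.0%) and in 10.1% of those of tested genes. CHR and CCAAT (either strand) stood together in 10 of 18 G2/M promoters (55.6%), in 1 of 20 S phase promoters (5.0%) and in 4.3% of those of tested genes. A match describes the letters only. Shown first are the 160 bases before the start of 4 S phase genes that the results turn on, read 5′ to 3′ on the coding strand, with E2F matches in capitals. PCNA is at chr20:5126623-5126782 (minus strand), MCM6 at chr2:135876444-135876603 (minus), E2F1 at chr20:33686386-33686545 (minus) and CDT1 at chr16:88803629-88803788 (plus).
PCNA: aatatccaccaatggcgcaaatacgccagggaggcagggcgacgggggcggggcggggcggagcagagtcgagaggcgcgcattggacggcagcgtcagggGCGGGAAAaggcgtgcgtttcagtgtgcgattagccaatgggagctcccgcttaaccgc
MCM6: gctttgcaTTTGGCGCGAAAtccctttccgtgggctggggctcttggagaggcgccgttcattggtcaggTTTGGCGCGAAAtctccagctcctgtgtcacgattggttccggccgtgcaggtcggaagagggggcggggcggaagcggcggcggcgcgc
E2F1: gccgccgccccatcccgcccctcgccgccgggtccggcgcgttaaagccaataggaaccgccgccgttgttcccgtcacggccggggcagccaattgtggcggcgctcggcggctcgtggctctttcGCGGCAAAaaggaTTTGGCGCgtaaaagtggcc
CDT1: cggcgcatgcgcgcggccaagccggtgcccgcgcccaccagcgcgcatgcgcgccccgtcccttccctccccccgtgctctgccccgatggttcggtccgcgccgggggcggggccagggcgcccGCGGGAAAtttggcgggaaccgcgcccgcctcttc

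Shown next are 3 G2/M genes that have CHR and CCAAT together, with both motifs in capitals. CCNB2 is at chr15:59104986-59105145, PLK1 at chr16:23678729-23678888 and CDC20 at chr1:43358821-43358980, all on the plus strand.
CCNB2: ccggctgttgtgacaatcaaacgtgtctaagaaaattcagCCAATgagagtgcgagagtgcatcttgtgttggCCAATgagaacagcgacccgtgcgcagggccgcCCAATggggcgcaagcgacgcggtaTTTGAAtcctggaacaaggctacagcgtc
PLK1: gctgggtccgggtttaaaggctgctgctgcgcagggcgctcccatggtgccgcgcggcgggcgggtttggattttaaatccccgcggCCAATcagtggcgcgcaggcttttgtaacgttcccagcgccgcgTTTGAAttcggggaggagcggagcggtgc
CDC20: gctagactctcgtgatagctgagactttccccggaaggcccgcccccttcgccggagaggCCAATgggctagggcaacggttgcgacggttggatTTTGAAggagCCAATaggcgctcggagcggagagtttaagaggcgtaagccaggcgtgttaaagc

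Per kilobase of exon, the levels over all 12 libraries were led by CDC20 (mean 126 CPM per kb), the ubiquitin-conjugating enzyme gene UBE2C (125), PCNA (121) and TYMS (101). They were lowest for CCNE2 (4.75), the phosphatase gene CDC25C (4.13) and NUSAP1 (0.252). NUSAP1, a spindle protein gene, had only 10 to 56 counts in a library. In GENCODE 29 the gene AC087721.2 covers 62.2% of its exon bases on the same strand and has 0 counts in every library, so the count of NUSAP1 is uncertain. In all, 22 members overlap another annotated gene, 13 of them a protein-coding one, and the sources do not say how strand was handled in counting.

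**Figure D1:**
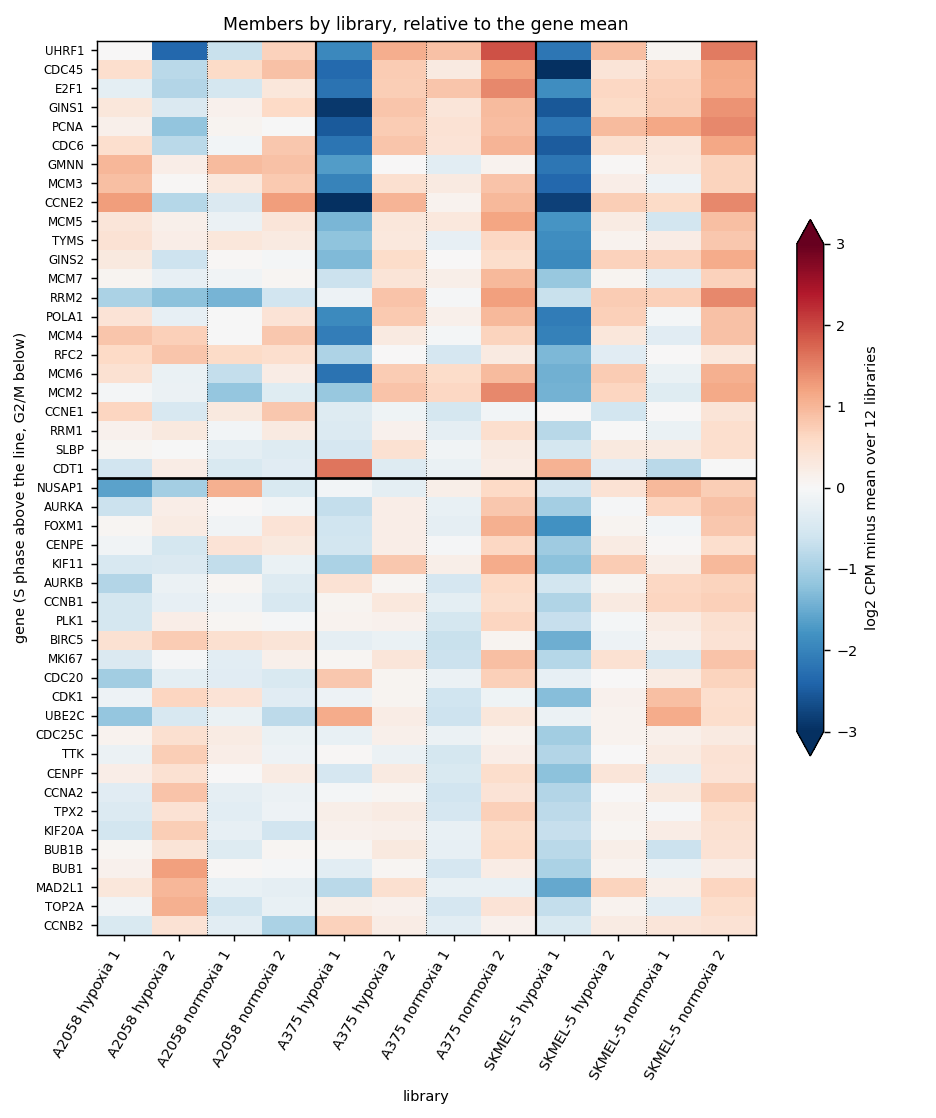
Colour gives log2 CPM minus the gene's mean over the 12 libraries, with genes down the page (S phase above the line, G2/M below, each from the most negative to the most positive change in hypoxia) and libraries across, hypoxia left of normoxia in each line. Blue S phase rows stand out in A375 hypoxia 1 and SKMEL-5 hypoxia 1, where PCNA had 23.5 and 30.0 CPM, while CDT1 is red there.

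No member passed the test for a change in hypoxia as the mean of the 3 lines. Over all genes, 0.978% were called higher and 0.143% lower in hypoxia, and the members' counts were 0 higher and 0 lower. They were 0 also with DESeq2, which called 5.65% of all genes higher and 2.21% lower, and with limma-voom, which called 0.779% higher and 0.127% lower. An unadjusted p under 0.05 was reached by 2 members (NUSAP1 and AURKA) with edgeR, against 19.0% of all genes. It was reached by 4 members with DESeq2 and 5 with limma-voom. The share of all genes was not counted for these 2 tests, so their member counts have nothing to be set against. Of the fitted means, 22 of the 23 for S phase genes were lower in hypoxia, with a median log2 change of -0.50, and 19 of the 24 for G2/M genes, with a median of -0.16, against 49.0% of all tested genes and a median of 0.02. Without the DBP-high libraries 15 of 23 S phase genes were lower (median -0.11) and 16 of 24 G2/M genes (median -0.17), and 0 passed, against 0.132% of all genes called higher and 0.0147% lower. With no filter on low counts 4 S phase genes (PCNA, CDC45, E2F1 and UHRF1) passed as lower, where 1.31% of all genes were called lower and 3.65% higher. Without the DBP-high libraries PCNA was at -0.088, CDC6 at -0.083, GINS1 at -0.16, UHRF1 at -0.24, CDC45 at -0.28 and E2F1 at -0.36, while AURKA was at -0.54, FOXM1 at -0.30, CENPE at -0.23, NUSAP1 at -1.09, CCNB2 at 0.073 and TOP2A at 0.078.

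**Figure D2:**
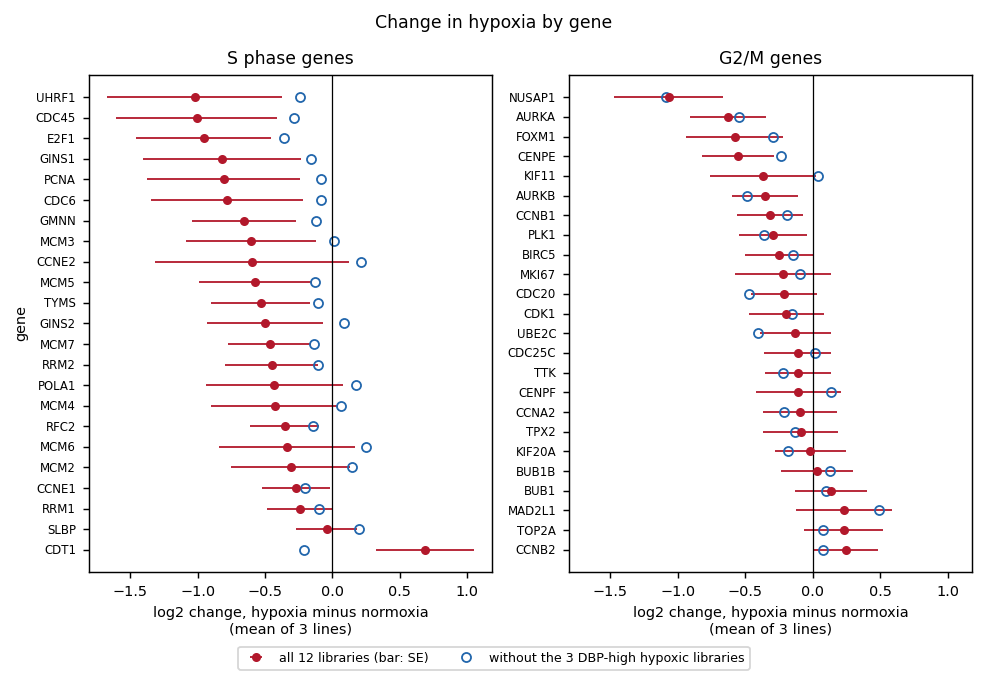
Points are log2 changes of each gene, hypoxia minus normoxia, as the mean of the 3 lines. Filled points with SE bars use all 12 libraries and open points leave out the 3 DBP-high ones. The S phase median is -0.50 for filled and -0.11 for open points, and CDT1 is at 0.68 with all libraries and at -0.21 without those 3.

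Among the origin licensing genes, CDC6, which loads the helicase, had 94.0 and 38.1 CPM in A2058 hypoxia against 62.6 and 118 CPM in A2058 normoxia. It had 14.7 and 119 CPM in A375 hypoxia against 88.2 and 135 CPM in A375 normoxia, and 11.7 and 93.3 CPM in SKMEL-5 hypoxia against 85.3 and 149 CPM in SKMEL-5 normoxia. In every line the DBP-high library was the lowest of the 4, and the other hypoxic library lay between the normoxic ones. The log2 change was -0.78 (SE 0.56, adjusted p = 0.459, edgeR).

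CDT1, the partner of CDC6, went the other way. It had 81.1 and 140.1 CPM in A2058 hypoxia against 87.5 and 95.6 CPM in A2058 normoxia, and 367 and 91.7 CPM in A375 hypoxia against 104 and 140.1 CPM in A375 normoxia. In SKMEL-5 it had 248 and 95.5 CPM in hypoxia against 69.0 and 119 CPM in normoxia. The DBP-high library was the highest of the 4 in each line, and the hypoxic values spanned the normoxic ones in A2058 and A375. Its log2 change was 0.68 (SE 0.36, adjusted p = 0.327), and it was the 1 S phase gene with a positive change. GMNN encodes geminin, the inhibitor of CDT1, and its log2 change was -0.65 (SE 0.38, adjusted p = 0.370).

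The 6 helicase subunits had fitted log2 changes of -0.31 (MCM2), -0.60 (MCM3), -0.43 (MCM4), -0.57 (MCM5), -0.34 (MCM6) and -0.47 (MCM7), with adjusted p of 0.419 to 0.752. MCM2 had 175 and 161 CPM in A2058 hypoxia against 81.7 and 139.9 CPM in A2058 normoxia, so that both hypoxic libraries were above both normoxic ones. In A375 it had 82.0 and 328 CPM in hypoxia against 279 and 494 CPM in normoxia, and in SKMEL-5 67.5 and 282 CPM in hypoxia against 140.0 and 397 CPM in normoxia. There the low hypoxic value was below both normoxic ones and the high one between them. MCM2, MCM3, MCM4 and MCM6 had positive changes without the DBP-high libraries (0.14, 0.0079, 0.065 and 0.25).

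CDC45, which joins the helicase when an origin fires, had 35.9 and 14.3 CPM in A2058 hypoxia against 37.5 and 46.2 CPM in A2058 normoxia. It had 5.02 and 42.6 CPM in A375 hypoxia against 30.4 and 57.8 CPM in A375 normoxia, and 2.74 and 33.1 CPM in SKMEL-5 hypoxia against 39.2 and 55.4 CPM in SKMEL-5 normoxia. The groups did not overlap in A2058 and SKMEL-5 and overlapped in A375. Its log2 change of -1.01 (SE 0.60, adjusted p = 0.372) was the second most negative of the S phase genes and did not pass. GINS1, a subunit of the GINS complex, had 3.82 to 50.3 CPM in hypoxia and 31.3 to 72.9 CPM in normoxia, with a fitted log2 change of -0.82 (SE 0.59, adjusted p = 0.456). GINS2 was at -0.50 and POLA1, the catalytic subunit of the priming polymerase, at -0.43.

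PCNA, the sliding clamp of the replicative polymerases (chr20:5114953-5126626 in GENCODE 29), had 149.8 and 58.9 CPM in A2058 hypoxia against 143 and 134 CPM in A2058 normoxia. It had 23.5 and 227 CPM in A375 hypoxia against 181 and 257 CPM in A375 normoxia, and 30.0 and 258 CPM in SKMEL-5 hypoxia against 299 and 368 CPM in SKMEL-5 normoxia. The groups did not overlap in SKMEL-5 alone, and the log2 change over the lines was -0.81 (SE 0.57, adjusted p = 0.451). RFC2, a subunit of the loader of PCNA, had a fitted log2 change of -0.36.

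E2F1, the activating factor of S phase, had 40.6 and 27.2 CPM in A2058 hypoxia against 34.5 and 62.9 CPM in A2058 normoxia. It had 10.6 and 82.6 CPM in A375 hypoxia against 89.0 and 134 CPM in A375 normoxia, and 13.6 and 76.0 CPM in SKMEL-5 hypoxia against 81.9 and 108 CPM in SKMEL-5 normoxia. Hypoxic values were below all normoxic ones in A375 and SKMEL-5 and overlapped them in A2058. The log2 change was -0.95 (SE 0.50, adjusted p = 0.319), and -1.67, past the threshold, without A375 hypoxia 2, where 1.42% of all genes were called lower and 3.94% higher. The cyclin E genes, whose proteins activate CDK2 at S phase entry, had fitted log2 changes of -0.27 (CCNE1, SE 0.25, adjusted p = 0.577) and -0.60 (CCNE2, SE 0.72, adjusted p = 0.679). CCNE2 ranged from 1.5 to 34.9 CPM among the hypoxic libraries and from 10.7 to 39.5 CPM among the normoxic ones.

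UHRF1, which keeps DNA methylation through replication, had the most negative S phase change, -1.02 (SE 0.65, adjusted p = 0.405), with 15.7 to 172 CPM in hypoxia and 51.0 to 304 CPM in normoxia. Of the genes of nucleotide supply, TYMS had a fitted log2 change of -0.53, RRM1 of -0.24 and RRM2 of -0.45 (SE 0.34, adjusted p = 0.487). RRM2, the small subunit of ribonucleotide reductase, ranged from 115 to 493 CPM in hypoxia and from 103 to 732 CPM in normoxia, so the groups overlapped. SLBP, the histone mRNA binding protein, had the smallest S phase change (-0.04, SE 0.23, adjusted p = 0.956), with 59.0 to 116 CPM in hypoxia and 64.8 to 119.9 CPM in normoxia.

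**Figure D3:**
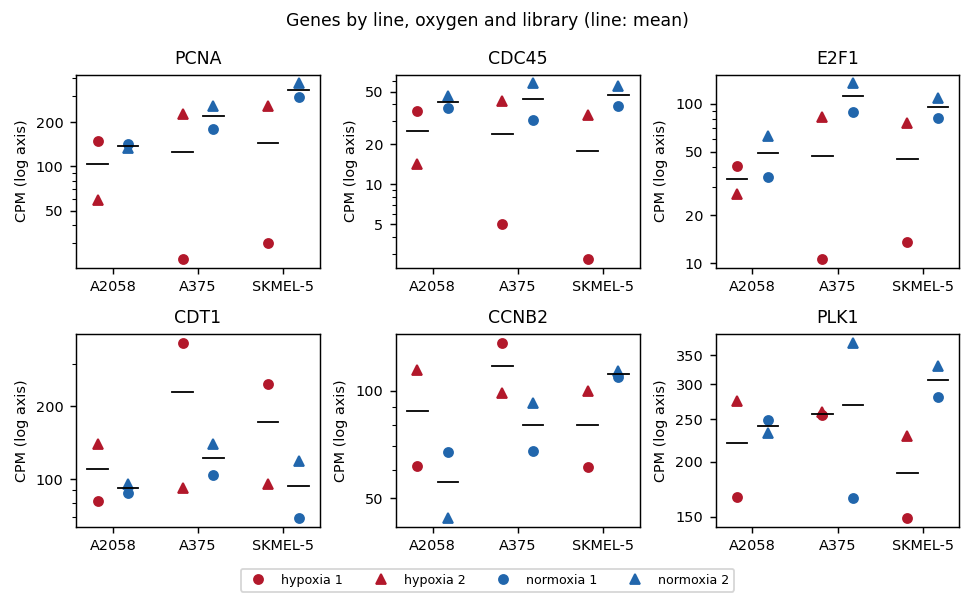
CPM on a log axis by line for 4 S phase and 2 G2/M genes, hypoxia (red) left of normoxia (blue), circles for replicate 1, triangles for replicate 2 and a short line for the mean of 2. The lowest PCNA, CDC45 and E2F1 points are hypoxia 1 in A375 and SKMEL-5, where CDT1 is highest, and PLK1 spreads far less.

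Among the mitotic kinases, AURKA, which builds the spindle poles, had 56.4 and 101 CPM in A2058 hypoxia against 88.0 and 82.2 CPM in A2058 normoxia, and 53.7 and 101 CPM in A375 hypoxia against 74.7 and 153 CPM in A375 normoxia. In SKMEL-5 it had 43.2 and 85.9 CPM in hypoxia against 136 and 162 CPM in normoxia, the 1 line without overlap. Its log2 change was -0.63 (SE 0.28, adjusted p = 0.258). PLK1, a kinase needed throughout mitosis, had a fitted log2 change of -0.30 (SE 0.25, adjusted p = 0.536), with 149 to 275 CPM in hypoxia and 165 to 373 CPM in normoxia. CDK1, the kinase of mitotic entry, had a fitted log2 change of -0.20 (SE 0.28, adjusted p = 0.735), AURKB of -0.36, TTK of -0.11 and BUB1 of 0.14 (SE 0.27, adjusted p = 0.821).

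The cyclins gave values of both signs. CCNB1 had a fitted log2 change of -0.32 (SE 0.25, adjusted p = 0.496), CCNA2 of -0.10 and CCNB2 of 0.25 (SE 0.24, adjusted p = 0.592), the most positive of the G2/M genes. CCNB2 had 61.6 and 114 CPM in A2058 hypoxia against 67.4 and 44.0 CPM in A2058 normoxia, 136 and 98.5 CPM in A375 hypoxia against 67.8 and 92.6 CPM in A375 normoxia, and 61.2 and 99.5 CPM in SKMEL-5 hypoxia against 109 and 114 CPM in SKMEL-5 normoxia. Both hypoxic libraries were above both normoxic ones in A375 and below them in SKMEL-5. CDC25C, the phosphatase that activates CDK1, had a fitted log2 change of -0.11, and the anaphase genes CDC20 and UBE2C of -0.21 and -0.13.

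MKI67, the standard marker of proliferating cells, had 347 and 456 CPM in A2058 hypoxia against 374 and 522 CPM in A2058 normoxia, and 484 and 602 CPM in A375 hypoxia against 297 and 880.4 CPM in A375 normoxia. In SKMEL-5 it had 257 and 643 CPM in hypoxia against 334 and 839 CPM in normoxia. The groups overlapped in every line, and its change was -0.22 (SE 0.35, adjusted p = 0.774). TOP2A, the topoisomerase that untangles chromosomes, had 311 and 706 CPM in A2058 hypoxia against 229 and 290.0 CPM in A2058 normoxia, without overlap, and overlapped in the other lines (206 to 383 CPM in hypoxia, 236 to 487 CPM in normoxia). Its change was 0.23 (SE 0.29, adjusted p = 0.697).

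FOXM1, the factor of G2/M transcription, had 62.6 to 259.9 CPM in hypoxia and 183 to 459.8 CPM in normoxia, with a change of -0.58 (SE 0.36, adjusted p = 0.397). CENPE, a kinetochore motor, had a fitted log2 change of -0.55 (SE 0.27, adjusted p = 0.288), KIF11, the motor that separates spindle poles, of -0.37, CENPF of -0.11, TPX2, a spindle assembly factor, of -0.09 and KIF20A, a motor of the late spindle, of -0.02. The spindle checkpoint genes MAD2L1 and BUB1B had fitted log2 changes of 0.23 (SE 0.35, adjusted p = 0.761) and 0.03. BIRC5, which encodes survivin of the chromosomal passenger complex, had a fitted log2 change of -0.25 (SE 0.25, adjusted p = 0.607). NUSAP1 had the most negative value, -1.07 (SE 0.40, adjusted p = 0.194), at 0.210 to 0.862 CPM in hypoxia and 0.468 to 1.33 CPM in normoxia. It was the 1 member whose hypoxic libraries were below the normoxic ones in every line, which held for 2.79% of all genes. No member was above them in every line, against 4.86% of all genes.

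Within single lines 0 members passed in A2058, A375 or SKMEL-5, where 0.0102%, 0% and 0% of all genes did. An unadjusted p under 0.05 (edgeR) was reached by 1, 0 and 2 members, against 9.16%, 5.60% and 6.53% of all genes. In SKMEL-5, however, all 24 G2/M genes and 22 of 23 S phase genes had a negative change, with medians of -0.60 and -0.90. Both hypoxic libraries were below both normoxic ones for 14 of the 24 G2/M genes (58.3%) and 8 of the 23 S phase genes (34.8%), against 19.7% of all genes, and above them for 0 members, against 18.5% of all genes. The 14 included CCNA2, CCNB1, CCNB2, CDK1, AURKA, AURKB, PLK1, CDC20 and UBE2C. CDK1 had 33.4 and 88.1 CPM in SKMEL-5 hypoxia and 150.5 and 114 CPM in SKMEL-5 normoxia, a log2 change of -1.12 with an adjusted p = 0.731 (edgeR). Without the DBP-high libraries the SKMEL-5 medians were -0.31 for G2/M and -0.23 for S phase genes.

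In A375, 12 of 24 G2/M genes had a negative change (median -0.0035) and 21 of 23 S phase genes (median -0.67). The hypoxic libraries were below the normoxic ones for 1 gene of each phase (E2F1 and NUSAP1), against 14.2% of all genes, and above them for CCNB2 only, against 18.1%. Without the DBP-high libraries the A375 medians were 0.02 and 0.01. In A2058 the medians were 0.19 for G2/M and -0.07 for S phase genes, and -0.18 and 0.08 without those libraries. There 6 members (MCM2, RFC2, SLBP, TOP2A, BUB1 and MAD2L1) had both hypoxic libraries above the normoxic ones, against 20.5% of all genes, and 3 (CDC45, CENPE and NUSAP1) below, against 18.6%. The test of whether the change in hypoxia differed between the lines called 0% of all genes and 0 members. It had 0 members at an unadjusted p under 0.05 (edgeR), against 1.60% of all genes, so a difference between lines was not shown.

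The hypoxic libraries of a line differed from each other in the S phase genes. With 1 library on each side these are values with no test. In A375 the DBP-high library was lower than the other hypoxic one for 22 of 23 S phase genes, with a median log2 difference of -2.00, and at least 2-fold lower for 18 of them (78.3%, against 22.7% of all tested genes). In SKMEL-5 it was lower for 21 of 23, with a median of -2.19, and at least 2-fold lower for 19 (82.6%, against 17.1%). In A2058 it was lower for 20 of 23, with a median of -0.65, and at least 2-fold lower for 6 (26.1%, against 14.9%). The all-gene medians were -0.08, -0.08 and 0.00. Set against the mean of the normoxic libraries, the S phase medians of the DBP-high library were -0.44 (A2058), -2.18 (A375) and -2.38 (SKMEL-5). There 6, 17 and 19 of 23 genes were at least 2-fold lower (26.1%, 73.9% and 82.6%), against 16.8%, 21.6% and 17.9% of all tested genes. The G2/M medians were 0.33, -0.04 and -1.24. The 19 S phase genes that were lower in all 3 lines were 82.6% of the list, against 29.9% of all tested genes. The differences of A375 and SKMEL-5 were themselves correlated across genes (r = 0.797), which is given as a description.

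The G2/M genes gave other values in the same pairs. Their median difference was -0.18 in A375, -0.98 in SKMEL-5 and 0.69 in A2058. In A2058 23 of 24 were higher in the DBP-high library, against 9826 of the 19636 tested genes. CENPE alone was lower in all 3 lines (4.17% of the list, against 29.9% of all tested genes). In A375 the DBP-high library had 419 CPM of CDC20 and 310.0 CPM of UBE2C, against 255 and 168 CPM in the other hypoxic library. PLK1 had 255 CPM and 259.5 CPM there. In the same pair CCNE2 was 19.5-fold, GINS1 13.2-fold and PCNA 9.65-fold lower, and CDT1 was 4.0-fold higher. In SKMEL-5 the matching folds were 11.5 (CCNE2), 8.65 (GINS1) and 8.62 (PCNA) lower and 2.59 (CDT1) higher, and in A2058 4.32, 1.71 and 2.54 lower and 1.73 higher.

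**Figure D4:**
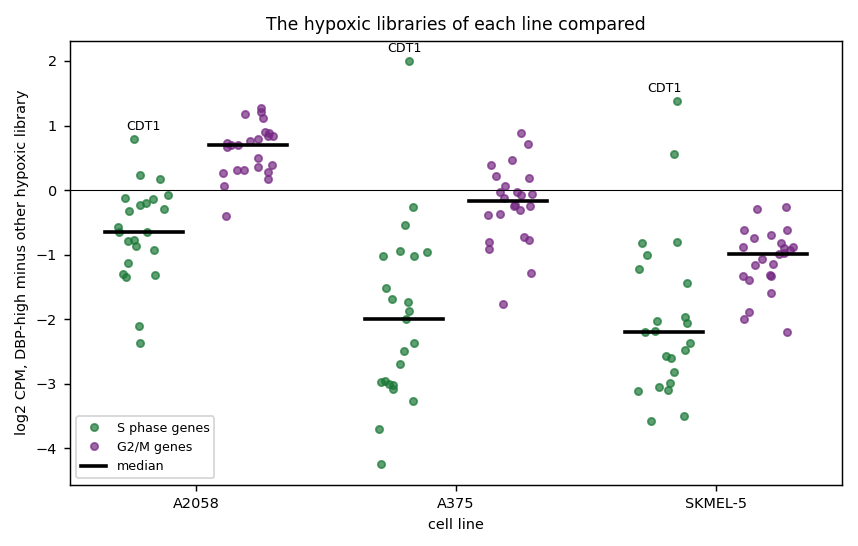
Each point is 1 gene, as log2 CPM in the DBP-high hypoxic library minus the other hypoxic library of the line, with S phase genes (green) left of G2/M genes (purple) and black lines at the medians. S phase medians are -0.65, -2.00 and -2.19 and G2/M medians 0.69, -0.18 and -0.98 in A2058, A375 and SKMEL-5, and CDT1 is positive in each line.

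Within the S phase list, the 13 genes with an E2F motif had median differences of -0.66 (A2058), -2.69 (A375) and -2.56 (SKMEL-5), and the 7 without a match -0.29, -0.96 and -1.01. The comparison of the 2 sets was not tested. CDT1 was among the 13 and was higher in the DBP-high libraries. In the G2/M list the 11 genes with a CHR motif (medians 0.67, -0.23 and -0.98) and the 7 without (0.70, -0.24 and -1.07) were close to each other. The mean log2 CPM of S phase genes minus that of G2/M genes was -0.89 (A2058), -1.67 (A375) and -0.999 (SKMEL-5) in the DBP-high libraries, 0.38, 0.07 and -0.09 in the other hypoxic libraries, and -0.34 to 0.27 in the 6 normoxic libraries.

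Set against the mean of the normoxic libraries of the line, the other hypoxic libraries showed small differences. S phase medians were 0.12 (A2058), 0.07 (A375) and -0.21 (SKMEL-5), and none of the 23 genes differed 2-fold in any of the 3 lines. Of all tested genes 6.33%, 5.04% and 3.55% were at least 2-fold lower, and 8.31%, 4.77% and 7.93% at least 2-fold higher. G2/M medians were -0.15, 0.14 and -0.29. The normoxic libraries of a line also differed. Normoxia 1 was lower than normoxia 2 for 17 (A2058), 23 (A375) and 23 (SKMEL-5) of the 23 S phase genes, with medians of -0.45, -0.72 and -0.72. It was lower for 8, 23 and 21 of the 24 G2/M genes, with medians of 0.10, -0.87 and -0.34. Of all tested genes 45.6%, 47.4% and 48.2% were lower, with medians of 0.04, 0.02 and 0.01. CA9, a hypoxia response gene, was at 19.0, 4.91 and 9.81 CPM in normoxia 1 of the 3 lines, taken in the same order, and at 0.0826, 0.805 and 0.223 CPM in normoxia 2. DBP and TXNIP were also higher in normoxia 1 than in normoxia 2 of each line. The relation of CA9, DBP and TXNIP to the members was not tested.

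Lines differed in the level of 5 members when A2058 was set against the mean of A375 and SKMEL-5 over both oxygen conditions. Over all tested genes 17.2% were called higher and 16.5% lower in A2058, and of the members 2 were called higher and 3 lower. RRM2 was lower in A2058, at 103 to 182 CPM against 169 to 732 CPM in A375 and SKMEL-5, with a log2 difference of -1.64 (SE 0.39, adjusted p = 0.00795, edgeR). The ranges overlap through the SKMEL-5 DBP-high library. UBE2C was lower, at 64.0 to 125 CPM in A2058 against 93.9 to 310.0 CPM in the other lines, with overlap (-0.996, SE 0.29, adjusted p = 0.0225). CDC20, the activator of the anaphase-promoting complex, was lower without overlap, at 117 to 197 CPM in A2058 against 203 to 419 CPM in A375 and SKMEL-5 (-0.80, SE 0.27, adjusted p = 0.040).

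RFC2 was higher in A2058 without overlap, at 119 to 149.8 CPM against 33.1 to 105 CPM in A375 and SKMEL-5 (0.88, SE 0.26, adjusted p = 0.023). BIRC5 was higher, at 161 to 210.1 CPM in A2058 against 44.9 to 167 CPM in A375 and SKMEL-5, with overlap (0.74, SE 0.26, adjusted p = 0.0483). RRM2 and UBE2C passed also without the DBP-high libraries, where CDC20 (-0.92), RFC2 (0.64) and BIRC5 (0.55) did not. RRM2 passed whichever 1 library was left out. UBE2C did not pass without A2058 hypoxia 1 (-0.85) or A2058 normoxia 2 (-0.87), and RFC2 did not without A2058 hypoxia 2 (0.83), A2058 normoxia 1 (0.88), A2058 normoxia 2 (0.89) or A375 normoxia 1 (0.79). CDC20 kept its call only without A2058 hypoxia 2, A375 hypoxia 2, A375 normoxia 1 or SKMEL-5 normoxia 1, and its difference was -0.64 without A2058 hypoxia 1. BIRC5 kept its call only without A375 normoxia 2 or SKMEL-5 hypoxia 2, with differences of 0.61 to 0.93 over all 12.

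**Figure D5:**
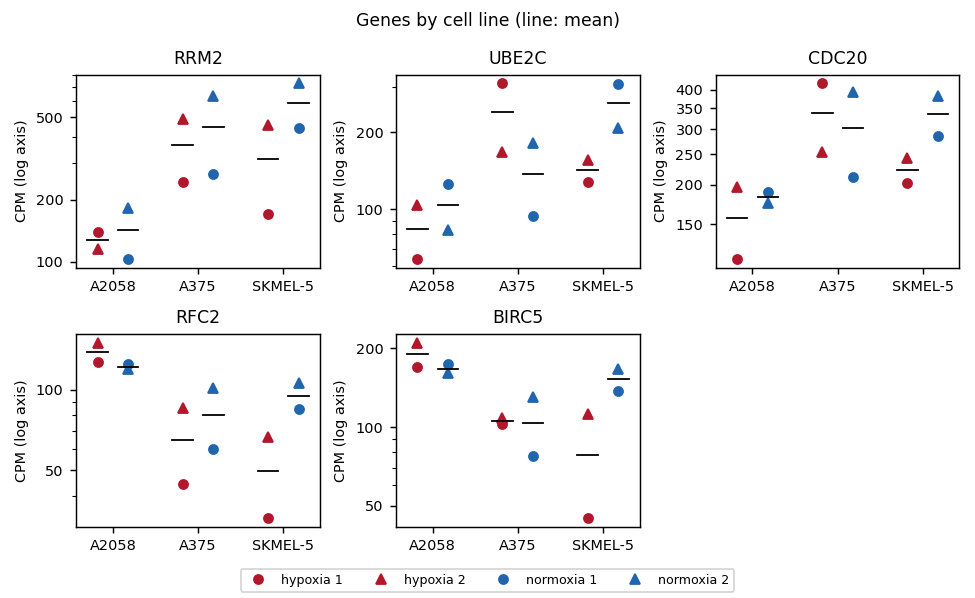
CPM on a log axis of the 5 members called between lines, with A2058 at the left, hypoxia (red) left of normoxia (blue), circles for replicate 1, triangles for replicate 2 and a short line for the mean of 2. RRM2, UBE2C and CDC20 are lower in A2058, and RFC2 and BIRC5 higher.

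Genes around the members were read from lists chosen by function. Of 41 other replication genes 36 had a negative change in hypoxia (median -0.43) and 0 passed. Of the 41, 6 had an unadjusted p under 0.05 (edgeR), against 19.0% of all tested genes. DESeq2 called 1 lower, against 2.21% of all genes, and limma-voom 0. MCM10, an origin firing factor, had 3.55 and 65.2 CPM in A375 hypoxia against 51.2 and 97.1 CPM in A375 normoxia, the low value again in the DBP-high library. FEN1, which trims lagging-strand flaps, had 17.1 and 163 CPM in A375 hypoxia against 128 and 220.2 CPM in A375 normoxia. Both were named after their values were seen. In the DBP-high libraries the list's median difference from the other hypoxic library was -0.36, -1.32 and -1.49 in the 3 lines in the order A2058, A375, SKMEL-5.

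Of 48 other mitosis genes 32 had a negative change (median -0.16) and 0 passed by edgeR, DESeq2 or limma-voom. Of the 48, 3 had an unadjusted p under 0.05 (edgeR), against 19.0% of all tested genes. Their medians in the DBP-high libraries were 0.37, -0.38 and -1.15. PTTG1, which encodes securin, had 334 CPM in the DBP-high and 109.8 CPM in the other hypoxic library of A2058, 380.1 and 129.8 CPM in A375 and 142 and 144 CPM in SKMEL-5. It too was named after its values were seen.

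Of 13 replication checkpoint genes 10 had a negative change (median -0.23) and 1 passed as lower, against 0.143% of all tested genes. This was RAD9A, a subunit of the 9-1-1 clamp that loads at damaged or stalled forks. RAD9A had 12.5 and 13.0 CPM in A2058 hypoxia against 42.2 and 26.9 CPM in A2058 normoxia, 15.4 and 14.4 CPM in A375 hypoxia against 23.8 and 31.6 CPM in A375 normoxia, and 14.3 and 14.7 CPM in SKMEL-5 hypoxia against 22.9 and 22.3 CPM in SKMEL-5 normoxia. All hypoxic libraries were below all normoxic ones, and the log2 change was -0.99 (SE 0.20, adjusted p = 0.0429, edgeR). It did not pass with limma-voom (-0.97, adjusted p = 0.053), with a replicate block (-0.98, adjusted p = 0.107), in the mean of A2058 and A375 only (-1.17, adjusted p = 0.0963) or of A2058 and SKMEL-5 only (-1.04, adjusted p = 0.121), without the DBP-high libraries (-1.03, adjusted p = 0.208) or without any 1 library but A375 hypoxia 2, while its change stayed between -0.87 and -1.09 with 1 library left out.

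Of the 17 G1 cyclins, kinases and E2F genes, 16 were tested and 0 passed (edgeR), with a median of -0.46. Of the 16, 2 had an unadjusted p under 0.05 (edgeR), against 19.0% of all tested genes. DESeq2 called 1 lower, against 2.21% of all genes, and limma-voom 0. CCND1, cyclin D1, had 247 and 18.0 CPM in A2058 hypoxia against 74.5 and 495 CPM in A2058 normoxia, 247 and 498 CPM in A375 hypoxia against 644 and 771 CPM in A375 normoxia, and 467 and 436 CPM in SKMEL-5 hypoxia against 349 and 665 CPM in SKMEL-5 normoxia. Its change was -0.73 (SE 0.58, adjusted p = 0.505), with no overlap in A375 only. It was -0.34 without the DBP-high libraries and -1.69 to -0.084 with 1 library left out. MYC, a driver of cell growth, stood at 280.0 CPM in A375 hypoxia 1 against 28.3 to 39.9 CPM in the other A375 libraries, and its change over the lines was 0.91 (SE 0.42, adjusted p = 0.268), against 0.080 without the DBP-high libraries and 0.16 to 1.19 with 1 library left out. MYC passed as higher with no filter on low counts (0.90, adjusted p = 0.021) and without A375 hypoxia 2 (1.19, adjusted p = 0.0256).

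Of the 16 CDK inhibitors, pocket proteins and MuvB genes 0 passed (edgeR), with a median of 0.17. Of the 16, 4 had an unadjusted p under 0.05 (edgeR), against 19.0% of all tested genes. DESeq2 called 1 higher, against 5.65% of all genes, and limma-voom 0. CDKN1B, which encodes p27, an inhibitor of cyclin-CDK2, had 46.6 and 181 CPM in A2058 hypoxia against 51.5 and 34 CPM in A2058 normoxia, 118 and 41.3 CPM in A375 hypoxia against 41.4 and 32.1 CPM in A375 normoxia, and 72.4 and 42.4 CPM in SKMEL-5 hypoxia against 60.2 and 38.4 CPM in SKMEL-5 normoxia. The DBP-high library was the highest of each line, and the change was 0.92 (SE 0.37, adjusted p = 0.219), against 0.00365 without those libraries. CDKN1B passed with no filter on low counts (0.91, adjusted p = 0.0202, edgeR). In the DBP-high library against the other hypoxic one, 4 of the 16 genes were higher in all 3 lines and 5 lower. Of 19636 tested genes, 5120 were higher and 5864 lower. CDKN2A was at 0.739-fold (A2058), 25.5-fold (A375) and 8.26-fold (SKMEL-5), and was named after its values were seen. CDKN1A, which encodes p21, had a fitted log2 change of 0.03 (SE 0.33, adjusted p = 0.996, edgeR). In the DBP-high library CDKN1A was at 0.495-fold (A2058), 1.25-fold (A375) and 2.81-fold (SKMEL-5) of the other hypoxic one. Between lines it was lower in A2058, at 14.1 to 28.5 CPM against 131 to 450.4 CPM in A375 and SKMEL-5 (-3.54, SE 0.43, adjusted p = 9.35e-05). RRM2B, the alternative small subunit of ribonucleotide reductase, had a fitted log2 change of 0.34 (SE 0.24, adjusted p = 0.451) and had 23.8 and 45.7 CPM in A2058 hypoxia against 15.1 and 17.6 CPM in A2058 normoxia.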

How the data were processed

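RNA-seq gene counts of 12 libraries (3 melanoma lines, hypoxia and normoxia, 2 libraries each) were used as deposited. The authors made them with bcl2fastq 2.20, Trim Galore 0.6.1 and STAR 2.5.0a on GRCh38, per the submitters' processing notes. For the counting tool, annotation release and strand setting, nothing is given in the sources used here. Per the labels' protocols, total RNA went through an mRNA library kit. The count of each gene was fitted in edgeR 4.0.16 (R 4.3.3) with filterByExpr (minimum count 10), TMM and 1 mean per group over all 12 libraries. Hypoxia minus normoxia was tested per line, as the 3-line mean and for a difference between lines, and A2058 against the other lines. Genes with an adjusted p under 0.05 are called. The test of the 3-line mean was tried on simulated data with 100 genes changed 2-fold and 100 changed 4-fold. These changed genes were drawn from genes with a mean count over 100, so genes with lower counts, such as NUSAP1, are not covered. The simulated lines did not differ in level. The test called 8% of the genes changed 2-fold and 86% of those changed 4-fold, and 7 unchanged genes. A missing call therefore does not show that a 2-fold change was absent. Log2 CPM used a prior count of 2. DESeq2 1.42.0, limma-voom (limma 3.58.1), other filters, a replicate block and left-out libraries were alternatives.

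The members and lists were chosen with earlier results of these data known. Named genes are the 4 largest rises and falls of each phase, a fixed set of well-known members, members called between lines and, of the other lists, called genes and CDKN1A, CDKN1B, CCND1, MYC and RRM2B. Depth was 33831569 to 54202819 counts per library. Replicate numbers were not used to pair libraries.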

Additional observations from a re-analysis of the deposited data

Results flagged for a closer look

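The 2 hypoxic libraries lay wholly on one side of the normoxic ones in one line and wholly on the other side in another for 2 members. Over all tested genes both hypoxic libraries were above both normoxic ones for 20.5% in A2058 and 18.1% in A375. They were below for 19.7% in SKMEL-5. The share of all genes with opposite sides in different lines was not counted, so the 2 members are given as a description. RFC2, a subunit of the PCNA loader, changed by 0.18 in A2058 and by -0.93 in SKMEL-5 on the log2 scale. CCNB2, cyclin B2, changed by 0.55 in A375 and by -0.47 in SKMEL-5. The test of a difference between the 3 lines gave an unadjusted p = 0.243 for RFC2 and 0.146 for CCNB2, with an adjusted p of 1 for both (edgeR).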

How the results depend on the processing

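The count of members called in hypoxia as the 3-line mean was 0 in both directions under the alternatives except with no filter on low counts (4 lower), and it was 0 to 1 lower with 1 library left out. The single-line counts and the count for a difference between lines were 0 throughout. For A2058 against the other lines, 2 members were higher and 3 lower. With no filter on low counts 6 were lower (10.1% of all genes), and without the DBP-high libraries 5 were lower (13.0%). In normoxic libraries only 0 were higher (9.51% of all genes) and 1 lower (8.43%), and in hypoxic libraries only 1 was higher (11.2%) and 0 lower (9.95%). With 1 library left out, 0 to 3 were higher (12.5% to 18.6% of all genes) and 1 to 3 lower (11.3% to 16.6%). The cause was not tested.

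Fitted changes in hypoxia that did not pass could turn their sign. Without the DBP-high libraries they turned for MCM2 (0.14), MCM3 (0.0079), MCM4 (0.065), MCM6 (0.25), GINS2 (0.087), CCNE2 (0.21), POLA1 (0.18), SLBP (0.20), CDT1 (-0.21), CDC25C (0.014), CENPF (0.13), KIF11 (0.037) and CDKN1A (-0.22). In the mean of A2058 and A375 only they turned for SLBP (0.16), CCNA2 (0.31), CDK1 (0.27), CDC25C (0.13), TPX2 (0.14), CENPF (0.00308), KIF20A (0.28), BIRC5 (0.10), UBE2C (0.24) and TTK (0.19), and in the mean of A2058 and SKMEL-5 only for KIF20A (0.00879). With 1 library left out, the change crossed 0 for BUB1 (-0.074 to 0.29), BUB1B (-0.16 to 0.25), CCNA2 (-0.33 to 0.10), CDC25C (-0.34 to 0.037), CDKN1A (-0.28 to 0.24), CENPF (-0.44 to 0.088), KIF20A (-0.27 to 0.15), MAD2L1 (-0.27 to 0.46), MCM2 (-0.77 to 0.0039), MKI67 (-0.49 to 0.11), SLBP (-0.23 to 0.088), TPX2 (-0.26 to 0.15), TTK (-0.28 to 0.023) and UBE2C (-0.30 to 0.056). The S phase median was -1.02 to -0.32 and the G2/M median -0.38 to -0.01 over these.

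Replicate numbers are shared by the labels. The difference of replicate 1 minus 2 in hypoxia correlated with that in normoxia by r = -0.304 (A2058), 0.234 (A375) and 0.255 (SKMEL-5). The sign differed between lines, so whether the numbers pair the libraries cannot be told. With a replicate block 0 members were called in hypoxia and the S phase median was -0.68, and between lines 3 were higher (16.4% of all genes) and 1 lower (14.8%). With the replicate block crossed in A2058, chosen after seeing the data, 0 were called in hypoxia and 4 higher (18.8% of all genes) and 3 lower (18.2%) between lines.

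Of the other lists, for hypoxia as the 3-line mean with no filter on low counts, 1 G1 gene was called higher and 3 lower. From the CDK inhibitor list 2 were called higher and 1 lower. Called lower were also 6 other replication, 3 other mitosis and 2 checkpoint genes. Called higher were also 2 fibroblast and 1 melanocytic marker. In this setting 3.65% of all genes were called higher and 1.31% lower.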
